A study of Bos taurus with 12 samples.

Results

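The loci described here differed at least 4-fold in mean level between cloned bovine embryos with and without overexpression of the histone demethylase KDM5B. They were chosen by an absolute difference of at least 2 in log2(FPKM + 1), where FPKM is a fragment count adjusted for transcript length and library size. The choice therefore used the very difference that is listed below, and that difference is given as a description with no test. Of 22445 loci, 61 reached this size (0.272%). The rule leaves out 5 of them, which stood at 5 FPKM or more in fertilised embryos and under 1 FPKM in clones without KDM5B. The remaining 56 loci are described, 35 higher and 21 lower with KDM5B. Of these, 27 carry Ensembl gene IDs (prefix ENSBTAG) and 29 carry the authors' own locus IDs (prefix BGI_novel).

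The study sequenced RNA of Holstein cattle in 4 groups of 3 libraries. Bovine fetal fibroblasts (BFF) were one group, and the other 3 were pools of 8 embryos at the 8-cell stage. Those embryos came from in vitro fertilisation (IVF), from somatic cell nuclear transfer (SCNT), or from SCNT with KDM5B overexpression. The labels give no age, sex or line for the animals, do not say how KDM5B was overexpressed, describe no control treatment for it, and do not say that the sequenced fibroblasts were the nuclear donors. The deposited table holds 1 value per group and locus, the authors' mean, so no SD, n or p-value can be given, and no difference below has a replicate check. A mean carried by 1 of 3 pools and a mean shared by all 3 cannot be told apart, and neither can fewer expressing cells and less RNA per cell. Depth is unknown. No ID could be matched to a gene name: 0 of the 37063 entries in the gene table used carry an Ensembl ID. KDM5B itself, the lists of histone methylation and genome activation genes, and all marker genes are therefore not analysed here, and the labelled cell types were not checked against markers.

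As background, KDM5B is a demethylase of lysine 4 on histone H3. Methylation there marks the start sites of active genes. In SCNT an enucleated egg receives the nucleus of a somatic cell, and it has to silence the programme of that cell and start that of the embryo. Histone methylation inherited from the somatic cell is one known barrier to that change. In cattle the main activation of the embryo's own genome begins around the stage sampled here, so both leftover egg RNA and new transcripts can be present.

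The group with the highest mean is given as a description. The rule keeps SCNT from being highest in the higher loci and KDM5B in the lower loci. It also uses the clone means that enter this ranking, and it leaves out some loci by their IVF level, which bears on the IVF count. Among the 35 loci higher with KDM5B, the KDM5B group was the highest of the 4 groups in 22, IVF in 11 and fibroblasts in 2. Among the 21 lower loci, SCNT without KDM5B was the highest in 17 and fibroblasts in 4. Among the other loci at 3 FPKM or more, the KDM5B group was highest in 39.9% of the 5631 that were higher with KDM5B, and SCNT in 54.5% of the 3297 that were lower. Those loci differed by less than 2, and a larger difference by itself makes the higher clone group more often the highest, so the shares are not directly comparable. The widest gap was that of BGI_novel_G004212, at 109.7 FPKM in SCNT and no more than 0.0533 in any other group.

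A difference of 2 needs at least 3 FPKM in the higher clone group, a level that 8991 loci reached. Of these, 0.678% differed by 2 or more, 0.445% higher and 0.234% lower with KDM5B, the left-out loci included. Differences under 1 made up 89.3% of them and differences of 1 to 2 made up 10.1%. Among the 56 loci, 44 differed by 2 to 3 and 12 by 3 or more. The median difference over the 8991 loci was 0.19, so the KDM5B column lay slightly higher as a whole. The balance of 35 higher and 21 lower loci depended on how the columns were scaled. With each column centred on its median over loci at 1 FPKM or more in an embryo group, the same rule gave 17 higher and 41 lower loci. Centring removed 0.27, a difference of column medians over this wider set, whereas the 0.19 above is a median of differences. The share of higher loci was then 29.3% in place of 62.5%. It was 59.1% with values rescaled to a common sum (TPM) and 41.5% after quantile normalization. Of the 35 higher loci, 17 kept a difference of at least 2 with columns centred; the lower loci could not lose it, since centring lowers every difference by the same amount.

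**Figure D1:**
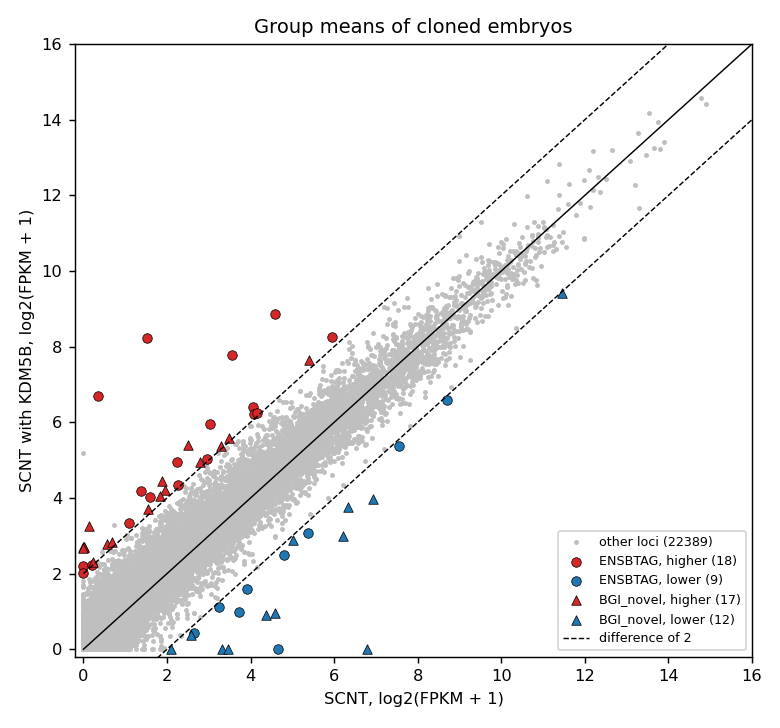
Mean level of each locus in SCNT embryos (x axis) against SCNT embryos with KDM5B (y axis), both as log2(FPKM + 1), with the solid line marking equality and the dashed lines a difference of 2. The 56 loci are coloured by direction and shaped by ID type, the loci left out by the rule are among the grey points, and most coloured points lie close to a dashed line.

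Ensembl loci that were higher with KDM5B numbered 18. They included the 4 largest upward differences among the 56 loci, each with a KDM5B mean farther from IVF than the SCNT mean was. In 7 of the 18 the fibroblast level exceeded the IVF level. ENSBTAG00000023823.1 had the widest gap of all higher loci, with 1.87 FPKM in SCNT and 301 with KDM5B, beside 0 in IVF and 24.2 in fibroblasts. The clone means differed 161-fold, the KDM5B mean was far above the fibroblast mean as well, and IVF was the lowest group. ENSBTAG00000006175.5 held 23.1 FPKM in SCNT and 465 with KDM5B, beside 2.37 in IVF and 23.9 in fibroblasts. SCNT and fibroblasts were nearly level there, and KDM5B stood alone at 20.1 times the SCNT mean. ENSBTAG00000000425.4 held 60.2 FPKM in SCNT and 302 with KDM5B, beside 15.0 in IVF and 516 in fibroblasts. The KDM5B mean lay between SCNT and fibroblasts, the highest group, and farther from IVF than the SCNT mean. ENSBTAG00000001021.6 showed the same order at lower levels, with 2.00 FPKM in SCNT and 15.2 with KDM5B, beside 0 in IVF and 43.3 in fibroblasts. ENSBTAG00000034368.3 was close to equal in IVF and fibroblasts and higher in both clone groups, with 15.5 FPKM in SCNT and 83.1 with KDM5B, beside 4.25 in IVF and 4.27 in fibroblasts. The other loci of this kind were near 0 outside the KDM5B group. ENSBTAG00000031026.1 had 0 FPKM in SCNT and 3.57 with KDM5B, beside 0 in IVF and 0.0433 in fibroblasts. ENSBTAG00000047055.1 had 0 FPKM in SCNT and 3.04 with KDM5B, beside 0 in IVF and 0.0233 in fibroblasts. Both only just passed the 3 FPKM that the rule requires.

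For 10 of the 18 the IVF level exceeded the fibroblast level, and in 7 of these IVF reached 5 FPKM. ENSBTAG00000037881.1 held the highest IVF level of all 56 loci, with 15.9 FPKM in SCNT and 73.9 with KDM5B, beside 562 in IVF and 0 in fibroblasts. ENSBTAG00000019145.4 had 16.7 FPKM in SCNT and 74.4 with KDM5B, beside 212 in IVF and 0 in fibroblasts. ENSBTAG00000009653.4 had 3.68 FPKM in SCNT and 30.2 with KDM5B, beside 132 in IVF and 0 in fibroblasts. These loci were listed at 0 in fibroblasts and lower in SCNT than in IVF, and the KDM5B mean covered only part of the gap to IVF. ENSBTAG00000048058.1 had 6.80 FPKM in SCNT and 31.9 with KDM5B, beside 169 in IVF and 25.1 in fibroblasts. ENSBTAG00000005888.5 had 3.76 FPKM in SCNT and 19.3 with KDM5B, beside 58.3 in IVF and 3.91 in fibroblasts. In both, IVF was the highest of the 4 groups and the KDM5B mean exceeded the fibroblast mean. ENSBTAG00000024182.1 had 7.19 FPKM in SCNT and 61.2 with KDM5B, beside 30.5 in IVF and 0.137 in fibroblasts. ENSBTAG00000045914.1 had 10.8 FPKM in SCNT and 219 with KDM5B, beside 26.6 in IVF and 0.09 in fibroblasts. In this pair the KDM5B mean passed the IVF mean, for ENSBTAG00000045914.1 so far that it ended farther from IVF than SCNT had been. Loci at low levels in IVF completed the list. ENSBTAG00000003313.5 had 0.15 FPKM in SCNT and 3.67 with KDM5B, beside 1.65 in IVF and 0.173 in fibroblasts. ENSBTAG00000030629.1 had 1.11 FPKM in SCNT and 9.04 with KDM5B, beside 1.65 in IVF and 0 in fibroblasts. ENSBTAG00000040367.1 had 1.60 FPKM in SCNT and 17.1 with KDM5B, beside 0.537 in IVF and 0 in fibroblasts. All 3 were higher with KDM5B than in any other group. The last of the 18, ENSBTAG00000031731.2, had no value above 0 in IVF or fibroblasts and held 0.28 FPKM in SCNT and 103 with KDM5B, a ratio of 366.

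The authors' own loci among those higher with KDM5B numbered 17, and 12 had a higher mean in IVF than in fibroblasts. BGI_novel_G001223 came closest to IVF at a high level, with 41.4 FPKM in SCNT and 198 with KDM5B, beside 214 in IVF and 0 in fibroblasts. BGI_novel_G003741 had 8.79 FPKM in SCNT and 40.3 with KDM5B, beside 234 in IVF and 0 in fibroblasts. IVF remained the highest group in both. BGI_novel_G000847 had 4.69 FPKM in SCNT and 41.0 with KDM5B, beside 189 in IVF and 0 in fibroblasts. BGI_novel_G002863 had 10.1 FPKM in SCNT and 47.2 with KDM5B, beside 112 in IVF and 0 in fibroblasts. These 4 were listed at 0 in fibroblasts, and KDM5B means stood between SCNT and IVF. BGI_novel_G003125 had 2.56 FPKM in SCNT and 15.7 with KDM5B, beside 51.8 in IVF and 0 in fibroblasts. BGI_novel_G002851 had 2.67 FPKM in SCNT and 20.8 with KDM5B, beside 41.3 in IVF and 0 in fibroblasts. BGI_novel_G002867 had 5.89 FPKM in SCNT and 30.2 with KDM5B, beside 27.6 in IVF and 0 in fibroblasts. The last of these reached the IVF mean and slightly passed it. BGI_novel_G002734 stood just under the 5 FPKM limit in IVF, with 0.48 FPKM in SCNT and 5.89 with KDM5B, beside 4.89 in IVF and 0 in fibroblasts. The other loci of this order were low in IVF. BGI_novel_G001184 had 1.94 FPKM in SCNT and 12.2 with KDM5B, beside 1.11 in IVF and 0 in fibroblasts. BGI_novel_G004688 had 2.85 FPKM in SCNT and 17.6 with KDM5B, beside 0.623 in IVF and 0.18 in fibroblasts. BGI_novel_G004128 had 0.597 FPKM in SCNT and 6.19 with KDM5B, beside 0.317 in IVF and 0 in fibroblasts. None of the 3 exceeded 2 FPKM in IVF. BGI_novel_G001786 had 0.18 FPKM in SCNT and 3.96 with KDM5B, beside 0.66 in IVF and 0.0167 in fibroblasts. In these 4 the KDM5B mean was the highest of the 4 groups.

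The remaining 5 own loci of the higher set were listed at 0 in both IVF and fibroblasts and near 0 in SCNT. BGI_novel_G004870 held 0.09 FPKM in SCNT and 8.58 with KDM5B. BGI_novel_G000817 was listed at 0 in SCNT and 5.40 with KDM5B. BGI_novel_G004519, BGI_novel_G004520 and BGI_novel_G004521, which carry consecutive numbers, were listed at the same 5.54 FPKM with KDM5B and at 0.00333, 0.00333 and 0 in SCNT. Their values with KDM5B were equal to the last deposited digit, and the files do not say whether they share sequence. BGI_novel_G004519 and BGI_novel_G004520 were equal in all 4 groups, and whether these loci are separate transcripts was not tested. Equality in the KDM5B group alone was not limited to them: ENSBTAG00000027676.4 was listed at the same level with KDM5B but at 3.20 FPKM in SCNT.

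Lower loci with Ensembl IDs numbered 9, and all of them had a KDM5B mean nearer to IVF than the SCNT mean was. Fibroblasts exceeded IVF in 5. ENSBTAG00000001745.3 was among the most abundant fibroblast loci, at rank 26 of that column, with 12.1 FPKM in SCNT and 0.98 with KDM5B, beside 2.16 in IVF and 1987 in fibroblasts. ENSBTAG00000047768.1 had 24.3 FPKM in SCNT and 0 with KDM5B, beside 0 in IVF and 79.6 in fibroblasts. ENSBTAG00000023026.4 had 8.53 FPKM in SCNT and 1.15 with KDM5B, beside 0.02 in IVF and 51.4 in fibroblasts. In these 3 loci SCNT held an intermediate level between fibroblasts and IVF, and the KDM5B mean was lower than SCNT by a ratio of 12.4 for the first and 7.39 for the third, and listed at 0 for the second. ENSBTAG00000033884.3 had 415 FPKM in SCNT and 94.7 with KDM5B, beside 94.3 in IVF and 145 in fibroblasts. ENSBTAG00000039462.2 had 26.7 FPKM in SCNT and 4.61 with KDM5B, beside 0.967 in IVF and 9.31 in fibroblasts. In this pair SCNT was the highest of the 4 groups. The KDM5B and IVF means of ENSBTAG00000033884.3 were nearly equal. IVF exceeded fibroblasts in 3 loci. ENSBTAG00000048229.1 had 188 FPKM in SCNT and 40.7 with KDM5B, beside 50.5 in IVF and 29.1 in fibroblasts. ENSBTAG00000032705.3 had 40.2 FPKM in SCNT and 7.49 with KDM5B, beside 12.6 in IVF and 5.76 in fibroblasts. ENSBTAG00000048047.1 had 13.9 FPKM in SCNT and 2.03 with KDM5B, beside 0.373 in IVF and 0 in fibroblasts. SCNT was again the highest group in each. ENSBTAG00000024700.4 was listed at 0 in IVF and fibroblasts, at 5.27 FPKM in SCNT and at 0.34 with KDM5B.

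Of the 12 lower loci with the authors' own IDs, 11 had their highest mean in SCNT. BGI_novel_G004468 was the most abundant of the 56 loci in both clone groups, at rank 30 of the SCNT column, with 2819 FPKM in SCNT and 683 with KDM5B, beside 12.3 in IVF and 0 in fibroblasts. With KDM5B it was still far above IVF. BGI_novel_G004481 had 120.0 FPKM in SCNT and 14.7 with KDM5B, beside 0.843 in IVF and 0.107 in fibroblasts. BGI_novel_G003039 had 79.0 FPKM in SCNT and 12.6 with KDM5B, beside 2.70 in IVF and 1.09 in fibroblasts. BGI_novel_G001814 had 73.1 FPKM in SCNT and 6.95 with KDM5B, beside 1.14 in IVF and 0.08 in fibroblasts. These 3 were under 3 FPKM in IVF, and the KDM5B means remained above it. BGI_novel_G004212 had the widest gap of all lower loci, with 109.7 FPKM in SCNT and 0 with KDM5B, beside 0 in IVF and 0.0533 in fibroblasts. BGI_novel_G004516 had 22.8 FPKM in SCNT and 0.937 with KDM5B, beside 0.453 in IVF and 0 in fibroblasts. BGI_novel_G004550 had 19.8 FPKM in SCNT and 0.873 with KDM5B, beside 0 in IVF and 0 in fibroblasts. The last 2 kept a trace with KDM5B, while the first was listed at 0. BGI_novel_G003430 had 9.96 FPKM in SCNT and 0 with KDM5B, beside 0 in IVF and 0 in fibroblasts. BGI_novel_G004570 had 8.93 FPKM in SCNT and 0 with KDM5B, beside 0 in IVF and 0 in fibroblasts. All 5 were under 1 FPKM in every group but SCNT. BGI_novel_G001589 had 4.97 FPKM in SCNT and 0.29 with KDM5B, beside 0.38 in IVF and 0 in fibroblasts. BGI_novel_G000547 had 31.1 FPKM in SCNT and 6.35 with KDM5B, beside 6.29 in IVF and 6.02 in fibroblasts. In both, KDM5B and IVF means were nearly equal. BGI_novel_G001361 was the only one of the 12 with its highest mean in fibroblasts, with 3.27 FPKM in SCNT and 0 with KDM5B, beside 0 in IVF and 5.61 in fibroblasts.

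**Figure D2:**
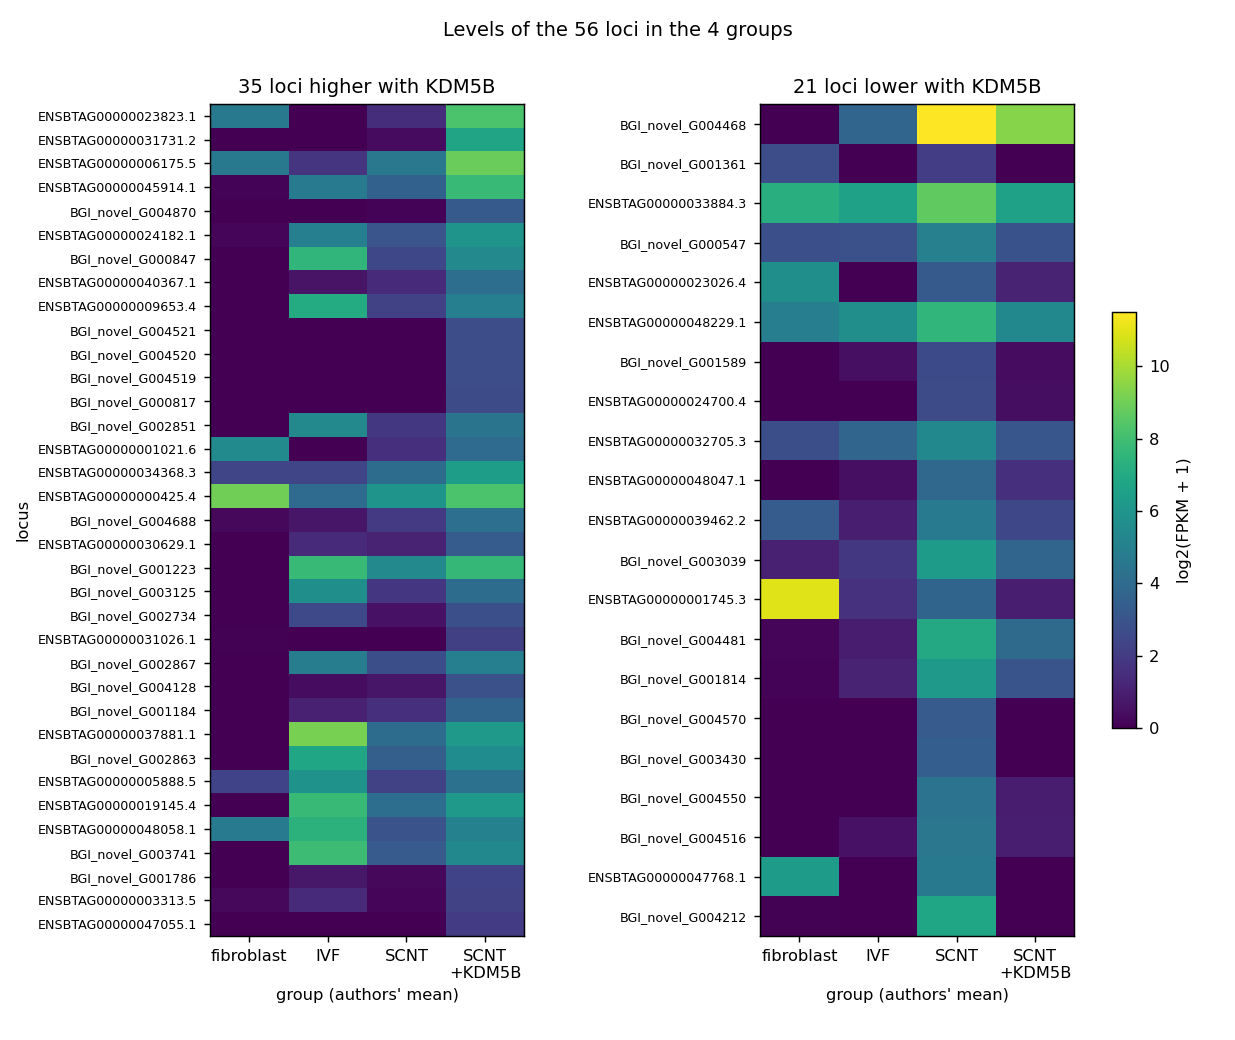
Mean level of each of the 56 loci in the 4 groups, as log2(FPKM + 1) on the colour scale, with loci as rows ordered by their difference from the largest upward to the largest downward. Some higher loci are bright in IVF and in SCNT with KDM5B and dark in fibroblasts, while most lower loci are brightest in SCNT. SCNT with KDM5B is the highest group in 22 of the 35 higher loci, and 14 of the 35 are under 1 FPKM in IVF.

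Position relative to IVF embryos and fibroblasts was read from distances in log2(FPKM + 1). The KDM5B mean was nearer to IVF than the SCNT mean was in 36 of the 56 loci, and nearer to fibroblasts in 20. These counts overlap: 18 loci came nearer to both, 18 to IVF only, 2 to fibroblasts only, and 18 to neither. The fibroblast count depended on the scale of the columns. With columns centred 42 loci came nearer to IVF and 39 to fibroblasts, and after quantile normalization 42 and 36, among the 58 and 65 loci that the rule then gave. Both distances of a pair use the same IVF or fibroblast column, and the SCNT column enters the choice of loci as well, so no test is given.

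Counts are given by direction. Of the 35 higher loci, 15 (42.9%) came nearer to IVF and 3 (8.57%) to fibroblasts. Among the other loci at 3 FPKM or more that were higher with KDM5B by less than 2, the shares were 48.9% of 5631 loci for IVF and 35.6% for fibroblasts. The 3 loci nearer to fibroblasts were ENSBTAG00000000425.4, ENSBTAG00000001021.6 and ENSBTAG00000048058.1, the last of which also came nearer to IVF. In 7 of the 35 the KDM5B mean moved in the IVF direction and passed the IVF mean. Of the 18 that came nearer to neither, 12 were under 1 FPKM in both IVF and fibroblasts, where any higher value lies farther away. All 21 lower loci came nearer to IVF and 17 (81.0%) to fibroblasts, against 62.6% and 77.3% of the 3297 other loci that were lower with KDM5B. In 17 of the 21 the SCNT mean was above both IVF and fibroblasts, where a lower value shortens both distances unless it goes far past them. The 4 lower loci that moved away from fibroblasts were ENSBTAG00000001745.3, ENSBTAG00000047768.1, ENSBTAG00000023026.4 and BGI_novel_G001361. The KDM5B and IVF means were within 2-fold on this scale in 6 of the higher and 14 of the lower loci, but 9 of those 14 were under 1 FPKM in both groups, where the added 1 keeps any pair within 2-fold. Among the other loci the shares were 37.8% of the higher and 39.5% of the lower. The exclusion in the rule bears on these counts, since all 5 loci it removes were higher and nearer to IVF with KDM5B. With them the counts are 41 of 61 nearer to IVF and 20 nearer to fibroblasts.

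**Figure D3:**
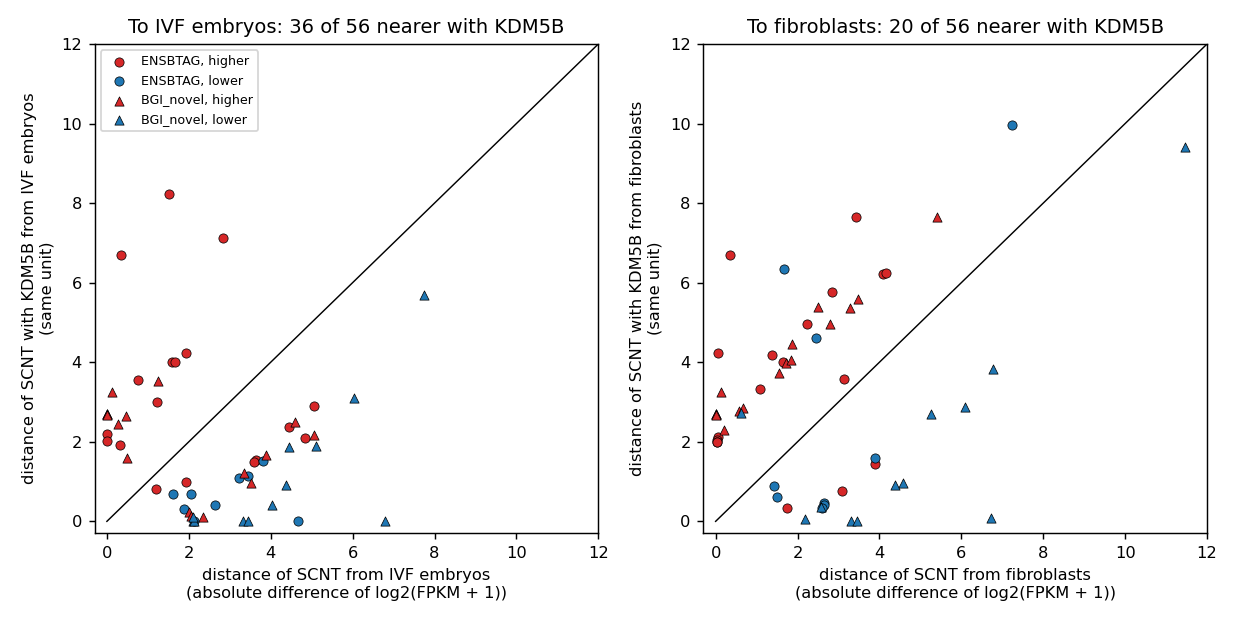
Distance of the SCNT mean (x axis) and of the SCNT with KDM5B mean (y axis) from IVF embryos (left) and from fibroblasts (right), as absolute differences of log2(FPKM + 1) for the 56 loci. Points under the line of equality came nearer with KDM5B, which holds for 36 loci on the left and 20 on the right, and all lower loci lie under the line on the left.

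ID type and version, which the rule did not use, were counted as well, without a test. The authors' own loci made up 51.8% of them, against 22.0% of 905 loci with differences of 1 to 2 and 12.1% of 8025 loci with differences under 1. In turn, a difference of 2 or more, with the left-out loci counted, was found in 2.65% of 1206 own loci and 0.37% of 7785 Ensembl loci at 3 FPKM or more. The own loci are low in general, with a median of 7.67 FPKM in the higher clone group against 17.2 for Ensembl loci. The 56 loci had a median of 21.8. Loci at 3 to 10 FPKM in the higher clone group reached the threshold in 0.638% of cases, and loci at 100 FPKM or more in 0.817%. These levels come from the clone means that the rule used, and the added 1 holds low loci back. With 0.1 added in place of 1 the rule gave 809 loci. Whether level bears on the share of own loci was not tested. The suffix of an Ensembl ID is its version, which goes up when the gene model is revised. Version 1, a model not revised, was carried by 12 of the 27 Ensembl loci (44.4%), against 11.6% and 6.09% in the groups with smaller differences. Whether counting of reads at such models, or at loci with near-identical copies, bears on the differences was not tested.

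Levels in fibroblasts and IVF were counted in the same way, although the rule used IVF levels to leave loci out. Fibroblasts were listed at 0 for 29 of the 56 loci (51.8%), against 19.1% of loci with differences of 1 to 2 and 6.34% of those under 1. Locus type moved with this share: fibroblasts were at 0 for 21 of the 29 own loci (72.4%) and 8 of the 27 Ensembl loci (29.6%), against 27.9% and 4.58% of the other own and Ensembl loci at 3 FPKM or more. Both IVF and fibroblasts were under 1 FPKM in 21 loci (37.5%, or 34.4% of the 61 loci with the left-out loci kept in), against 9.39% and 5.37%. Of those 21 loci, 12 were higher and 9 lower with KDM5B. Together the 35 higher loci summed to 253 FPKM in SCNT, 2286 with KDM5B, 2093 in IVF and 642 in fibroblasts. Different loci make up the KDM5B and IVF sums, so their similar size does not mean similar levels locus by locus. ENSBTAG00000006175.5 held 465 FPKM with KDM5B and 2.37 in IVF, while ENSBTAG00000037881.1 held 73.9 and 562. Of the 35 loci, 15 came nearer to IVF. The 21 lower loci summed to 4035, 877, 185 and 2320 FPKM. Single loci dominate the last series: BGI_novel_G004468 alone gives the larger part of the SCNT sum, which is 1216 FPKM without it, and ENSBTAG00000001745.3 most of the fibroblast sum. As a share of the whole column, the 56 loci held 0.484% in SCNT and 0.356% with KDM5B.

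**Figure D4:**
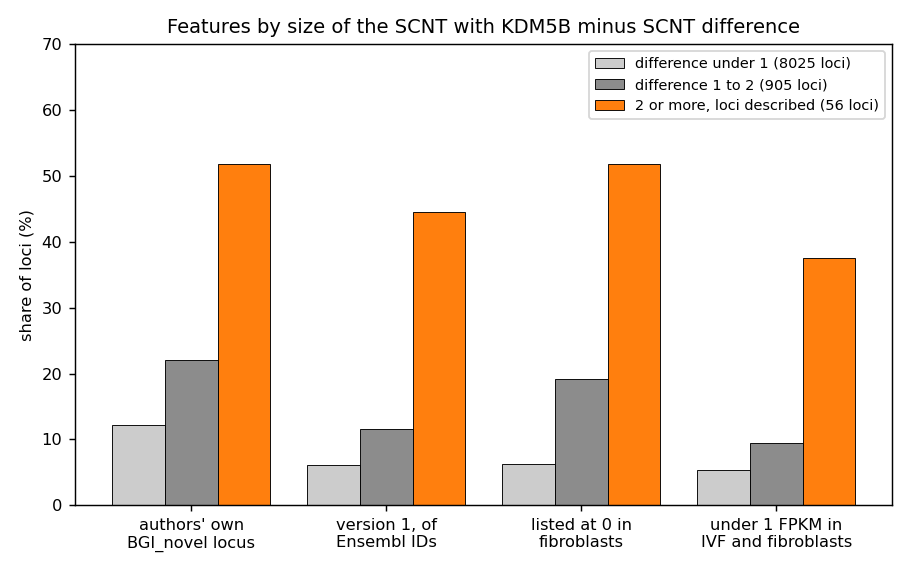
Share of loci (y axis, %) with each of 4 features, for loci at 3 FPKM or more in a clone group, in bars by the size of the SCNT with KDM5B minus SCNT difference in log2(FPKM + 1). For each feature the share is lowest at differences under 1 and highest in the 56 loci, for example 12.1%, 22.0% and 51.8% for the authors' own loci; the orange bars leave out the 5 loci removed by the rule.

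The threshold cut through a continuous range. Just inside it on the higher side were ENSBTAG00000047055.1 (2.02), ENSBTAG00000003313.5 (2.02) and BGI_novel_G001786 (2.07), with differences of log2(FPKM + 1) in parentheses. Just outside were ENSBTAG00000045803.1 (1.97), ENSBTAG00000039302.2 (1.97) and ENSBTAG00000012838.5 (1.96). Of these, ENSBTAG00000045803.1 held 8.33 FPKM in SCNT, 35.6 with KDM5B and 214 in IVF, values like those of loci inside the threshold. On the lower side BGI_novel_G004468 (-2.04), BGI_novel_G001361 (-2.10) and ENSBTAG00000033884.3 (-2.12) were just inside, and ENSBTAG00000020105.4 (-1.99), BGI_novel_G002143 (-1.99) and BGI_novel_G001595 (-1.94) just outside. The 5 loci left out by the rule were ENSBTAG00000040564.1, ENSBTAG00000016855.4, BGI_novel_G001306, BGI_novel_G002849 and BGI_novel_G002696. The first had a large difference (5.19) and was listed at 0 in SCNT, with 35.6 FPKM with KDM5B, 5.88 in IVF and 0 in fibroblasts.

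Across scalings of the columns (centred, TPM and quantile normalized), 16 of the 35 higher and 20 of the 21 lower loci kept a difference of at least 2 in all 3, and 8 and 9 did so with a pseudocount of 5 as well. For the lower loci, centring could only widen the difference. Rescaling to TPM kept all 56 loci and could hardly drop any. The SCNT and KDM5B columns had nearly equal sums before it, 885032 and 887410 FPKM. For the lower loci the count of 20 therefore rests on quantile normalization. The 8 higher loci include ENSBTAG00000023823.1 and ENSBTAG00000031731.2, which differed by 6.72 and 6.34 in log2(FPKM + 1), and ENSBTAG00000006175.5 and ENSBTAG00000045914.1, which differed by 4.27 and 4.22. The 9 lower loci include BGI_novel_G004212 (-6.79) and ENSBTAG00000047768.1 (-4.66). ENSBTAG00000033884.3 missed the threshold after quantile normalization, at -1.99.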

How the data were processed

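RNA was sequenced in 12 libraries, 3 per group, with groups read from sample titles because a second label calls the fibroblasts SCNT embryos. Embryo cDNA was amplified after direct lysis, per the labels' protocols. Sources disagree on the sequencer of the fibroblasts (BGISEQ in the design text, HiSeq in the protocol), so sequencer and cell type may not be separable. FPKM values were deposited by the authors as 1 column per group. Of the values of the 56 loci, 100% were multiples of 0.01 divided by 3 (tolerance 0.001 on the value times 300), as means of 3 libraries would be. The submitters' processing notes name RSEM 1.2.12, HISAT 0.1.6, bcl2fastq 2.16, StringTie 1.0.4, Bowtie2 2.2.5 and UMD3.1, without roles. Filters and annotation: not given in the sources.

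Differences were taken on log2(FPKM + 1), which understates changes of low loci. Every locus chosen is named, ordered by direction, ID type and which of IVF and fibroblasts was higher, with the 3 nearest to the threshold on each side. Ratios are given only where the lower mean was at least 0.1 FPKM. The loci and lists were chosen with earlier results of these data known. No test could be run, since each group has 1 value. The threshold step of the code was tested on a copy of the SCNT column with large planted changes and no noise. The exclusion and the distances were not part of that test. Python 3.11.15, numpy 2.4.6, pandas 2.3.3 and matplotlib 3.10.9 were used.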

Additional observations from a re-analysis of the deposited data

How the results depend on the processing

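The number of loci (56) was 809 with a pseudocount of 0.1, which lets low loci in, and 20 with a pseudocount of 5, which shrinks their differences. With these pseudocounts 528 and 10 loci were higher, 281 and 10 lower, 477 and 14 nearer to IVF, 369 and 10 nearer to fibroblasts, and 461 and 9 had BGI_novel IDs. With columns centred, 17 were higher, 41 lower and 39 nearer to fibroblasts. After quantile normalization 38 were lower and 36 nearer to fibroblasts. Centring kept 38 of the 56 loci and quantile normalization 43. The other 25 of 42 values stayed within 1.5 times of those reported, among them all under TPM scaling, with at least 5 FPKM in the higher clone group, and with the left-out loci kept in. TPM scaling could hardly drop a locus, since the clone columns have nearly equal sums, but it added 10 and gave 66 loci. The 5 FPKM limit removed 6 loci, and keeping the left-out loci added 5. No paired analysis was possible because every column is a mean over its group. Leaving out replicates was not run for the same reason. Depth is unknown, so the precision of low values cannot be given.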

Other observations

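Equal values across loci were counted after the data were seen. Of 104 values of at least 5 FPKM among the 56 loci and 4 groups, 28 were shared exactly with another locus in the same column. The share over all loci was not counted, so whether this is usual for the data is not known.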
